A study of Mus musculus with 18 samples.

Results

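A set of 10 heterogeneous nuclear ribonucleoprotein (hnRNP) genes was followed through mouse embryonic fibroblast (MEF) reprogramming, with the question of whether relatives of *Hnrnpul1* change when *Hnrnpul1* is depleted. The genes were taken by name: *Hnrnpul1*, *Hnrnpul2*, *Hnrnpu*, *Hnrnpa1*, *Hnrnpa2b1*, *Hnrnpc*, *Hnrnpd*, *Hnrnpdl*, *Hnrnph1*, and *Hnrnpl*. All 10 were listed among the 9435 genes of the knockdown table and among the 9472 genes of the overexpression table. They carry 599 of the 661941 annotated alternative splicing (AS) events, of which 507 had at least the lowest accepted coverage score in all 12 knockdown libraries and 512 in all 6 overexpression libraries.

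RNA-seq was made from primary MEFs of the genotype Collagen-OKSM, M2rtta+, in which doxycycline switches on OCT4, SOX2, KLF4, and MYC (OSKM). The 18 libraries form 9 groups of 2. Each of the 2 sets, knockdown and overexpression, starts from cells that were not infected (NI), taken at day 0. In the knockdown set, the day 12 cells had received doxycycline and a lentiviral shRNA, either scrambled (shSCR), against *Cpsf3* (shCPSF3#1, shCPSF3#2), or against *Hnrnpul1* (shUL1#1, shUL1#2). In the overexpression set, they had received doxycycline and a retroviral vector, either empty (Empty) or with T7-tagged *Tia1* cDNA (T7-TIA1). *Cpsf3* encodes the endonuclease that cuts pre-mRNA before polyadenylation, and TIA1 is an RNA-binding splicing regulator. For shUL1#2 (day 0) and for NI of the overexpression set (day 12), the time field of the labels contradicts the titles, and the day in the titles was used.

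Infected cells were sorted for GFP at an early day and grown on irradiated feeder fibroblasts, whereas NI cells were neither infected nor sorted. The effects of time, doxycycline, infection, sorting, and feeders cannot be told apart in any comparison of day 12 with day 0. These are bulk samples, so fewer cells of a type and less RNA per cell cannot be told apart either. Nothing in the sources used here says that the replicates came from separate animals, so a p-value measures only the spread between these libraries.

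The hnRNPs are abundant nuclear proteins that coat nascent transcripts and act in splicing, export, translation, and turnover of mRNA. Many of their own genes carry exons or introns whose inclusion sends the transcript to nonsense-mediated decay (NMD), the pathway that degrades mRNAs with a premature stop, so that the proteins can hold their own level in check. *Hnrnpul1*, *Hnrnpul2*, and *Hnrnpu* encode a structurally related group with a SAP DNA-binding domain and a SPRY domain. The UL1 and UL2 proteins are also known for a role at DNA breaks, where they act with the MRE11 complex and BLM.

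The target sites of both shRNAs against *Hnrnpul1* are shown because every statement on depletion rests on them. Both lie in the coding part of exon 10 of 15 of transcript Hnrnpul1-205 (GRCm38, minus strand), which is in 2 of the 5 annotated transcripts, and neither matches exactly a transcript of another gene. The site of shUL1#1 is at chr7:25733027-25733047 and that of shUL1#2 at chr7:25733059-25733079. Among the other 9 genes, the closest site to shUL1#1 has 3 mismatches and lies in the coding sequence of *Hnrnpu* (chr1:178331360-178331380), and the closest to shUL1#2 has 6 mismatches and lies in the 3′ UTR of *Hnrnpdl* (chr5:100035103-100035123). Capitals mark the mismatched bases.
shUL1#1 target: cccgaaagaagcgaaactata
closest *Hnrnpu* site: cccgTaagaagcgaaaTtTta
shUL1#2 target: tcagtgcctcaaccgtcttat
closest *Hnrnpdl* site: tcagtgccCAaacTgtACtTt

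The step between the deposited values puts the reads on listed genes at 98882289 to 109047542 per library, an estimate, since no counts were used. The levels of the other targets followed the labels in the libraries meant to change them. *Tia1* also passed the limma test as higher than in shSCR in both knockdowns, where 10.5% (UL1) and 26.1% (CPSF3) of all genes passed. *Cpsf3* read 38.6 to 77.1 scaled CPM in the shCPSF3 libraries against 86.7 and 118 in shSCR (adjusted p = 0.0207 with limma), and *Tia1* read 613 and 469 in T7-TIA1 against 85.6 and 77.0 in Empty, without passing the test (adjusted p = 0.222). Scaled CPM are read counts relative to library size (CPM), here to a size that the authors scaled for each library. Of 12 fibroblast markers fixed as a check, 11 were listed. Of 14 epithelial or pluripotency markers, only *Krt8* and *Krt18* were listed in the knockdown table and none in the overexpression table. In the day 12 knockdown groups, all 10 hnRNP genes were higher in replicate 2 than in replicate 1 in all 5 groups, by up to 2.25-fold for *Hnrnpd* and 2.22-fold for *Hnrnpa1*. Because same-numbered libraries deviated together, results are also given with the replicate number as a block, fitted to the day 12 knockdown libraries only, a fit chosen after the data were seen. The planned block over all 12 libraries is named as such.

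Per kilobase of exon, the median level ran from 219.6 scaled CPM for *Hnrnpa1* to 15.2 for *Hnrnpul1* over the 12 knockdown libraries. Between them, in falling order, stood *Hnrnpa2b1* (156), *Hnrnpc* (104), *Hnrnph1* (81.4), *Hnrnpu* (63.5), *Hnrnpdl* (58.8), *Hnrnpl* (48.9), *Hnrnpul2* (33.9), and *Hnrnpd* (28.7). The order was the same in the overexpression table. Ranges of neighbours overlapped throughout the knockdown table, and in the overexpression table only *Hnrnpa1* and *Hnrnpa2b1*, *Hnrnpa2b1* and *Hnrnpc*, *Hnrnpl* and *Hnrnpul2*, and *Hnrnpd* and *Hnrnpul1* had separate ranges. *Hnrnpa1* has processed pseudogenes, and how reads shared with such copies were counted is not given in the sources used here, so the levels are uncertain to that extent.

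**Figure D1:**
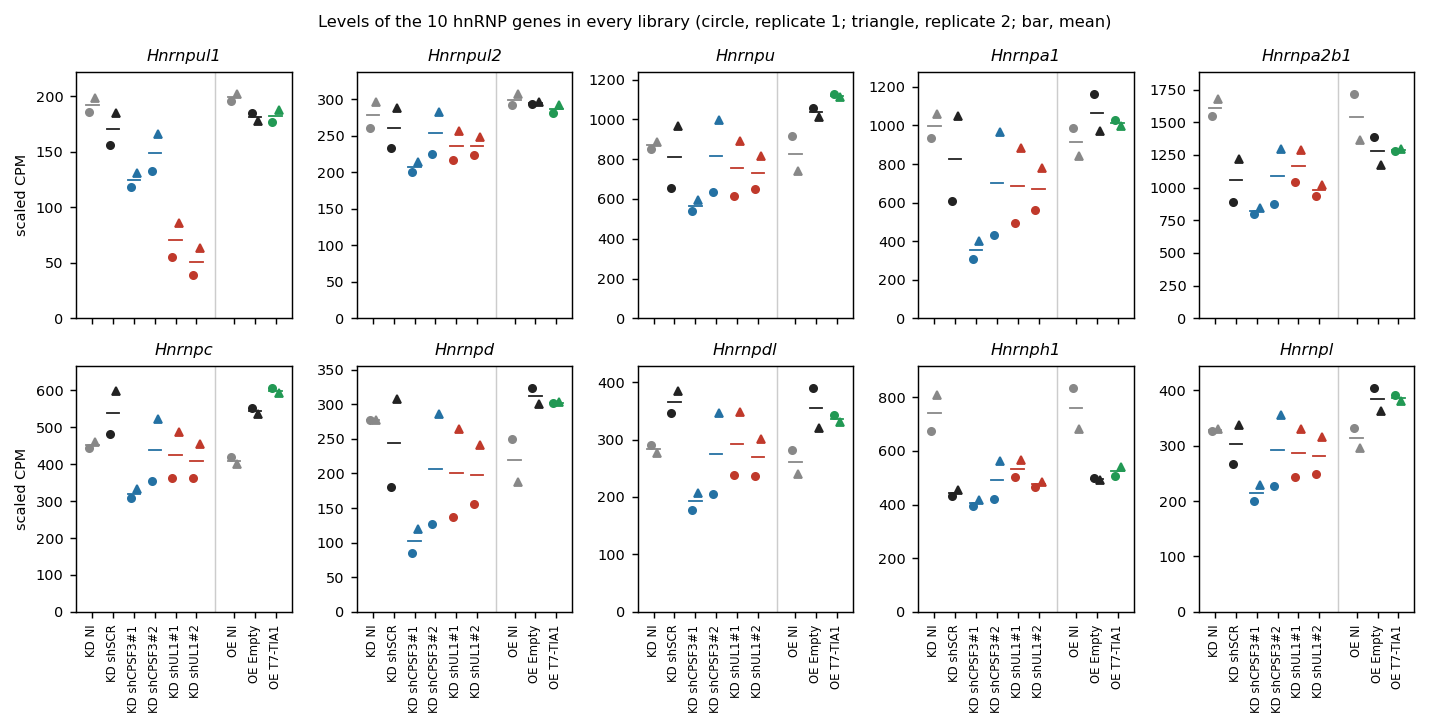
Scaled CPM of each hnRNP gene in every library, 1 panel per gene and 1 column of 2 points per group, with each y-axis starting at 0. The 4 shUL1 libraries of *Hnrnpul1* sit between 38.7 and 85.8, under the 156 and 185 of shSCR. For *Hnrnph1* all 4 lie above both shSCR libraries, as for 21.3% of all genes. For *Hnrnpc* and *Hnrnpdl* both shUL1#2 libraries lie below both shSCR libraries, as for 23.7% of all genes. For the remaining genes the shUL1 points fall near or among those of shSCR.

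*Hnrnpul1* (ENSMUSG00000040725, chr7:25721165-25754757) fell in the cells given shRNAs against it. Its level was 55.7 and 85.8 scaled CPM with shUL1#1 and 38.7 and 63.7 with shUL1#2, against 156 and 185 in shSCR. Within a replicate number this left 35.6% and 46.4% of the shSCR level with shUL1#1 and 24.8% and 34.4% with shUL1#2. The groups did not overlap, and the mean of both shRNAs was 1.52 ± 0.23 (SE) lower on the log2(scaled CPM + 1) scale (adjusted p = 0.0101 with limma over all genes, n = 4 and 2). Each shRNA passed the test against shSCR alone, with adjusted p = 0.0404 for shUL1#1 and 0.0141 for shUL1#2, where 4.93% and 6.23% of all genes passed. The call is lost without shSCR replicate 1 (adjusted p = 0.0513) or shSCR replicate 2 (0.0760), and in a fit of only the compared groups (0.0684). With the replicate block the adjusted p was 0.000602.

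In the other groups *Hnrnpul1* lay closer to the shSCR level. It read 186 and 198 in NI of the knockdown set and 196 and 202 in NI of the overexpression set. Empty gave 185 and 178, and T7-TIA1 gave 177 and 187. The shCPSF3 libraries gave 118, 131, 133, and 166, of which only the last lies in the shSCR range. Within replicate numbers they were below shSCR in 4 of 4 pairs, by ratios of 0.706 to 0.8985. The log2 difference from shSCR was -0.32 ± 0.23 (adjusted p = 0.318).

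None of the 9 relatives passed the test when *Hnrnpul1* was depleted, without the replicate block or with the planned block over all 12 libraries (29.3% of all genes called). With the day 12 block *Hnrnpdl* and *Hnrnpc* were lower. Within replicate numbers 7 of the 9 read below shSCR in 4 of 4 pairs. These pairs reuse the same 2 shSCR libraries, and the share of all genes with this pattern was not computed. In the *Cpsf3* knockdown *Hnrnpul2*, *Hnrnpa1*, *Hnrnpc*, *Hnrnpd*, and *Hnrnpdl* were also below in 4 of 4 pairs, and the remaining relatives in 3. Without the block 1 of the 10 genes was called, *Hnrnpul1* itself, against 10.5% of all genes. The median log2 difference over the 10 genes was -0.20, against 0.00415 over all genes, with 8 of 10 below 0. Before adjustment no relative had a p under 0.05, where 2713 of all 9435 genes did. UL1 and CPSF3 are each compared with the same 2 shSCR libraries, so their differences are not independent of each other.

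Neither of the closest paralogs passed. *Hnrnpul2* (chr19:8820010-8834143) read 217, 257, 224, and 249 with the UL1 shRNAs and 233 and 288 in shSCR. Its log2 difference of -0.13 ± 0.14 had a 95% interval of 0.724- to 1.15-fold (adjusted p = 0.572). *Hnrnpu* (chr1:178321108-178337797), a scaffold protein of nuclear chromatin, read 615 and 893 with shUL1#1, which has its closest second site there, 650.1 and 815 with shUL1#2, and 658 and 965 in shSCR. The groups overlapped (log2 difference -0.12 ± 0.25, interval 0.620- to 1.37-fold, adjusted p = 0.787). Without shSCR replicate 2 the log2 differences turned to 0.0164 for *Hnrnpul2* and 0.16 for *Hnrnpu*. Within replicate numbers, all 4 pairs of a UL1 and a shSCR library were below 1, at 0.865 to 0.959 for *Hnrnpul2* and 0.845 to 0.989 for *Hnrnpu*.

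The relatives with the largest log2 differences were *Hnrnpdl* and *Hnrnpc*. *Hnrnpdl* (chr5:100033577-100039664), a relative of the mRNA decay factor AUF1, read 239, 347, 237, and 301 with the UL1 shRNAs against 346 and 384 in shSCR. *Hnrnpc* (chr14:52073377-52104028), which binds uridine tracts of pre-mRNA, read 362, 487, 363, and 454 against 481 and 599. In each replicate number both UL1 libraries lay below shSCR, by ratios of 0.684 to 0.905 for *Hnrnpdl* and 0.754 to 0.813 for *Hnrnpc*. The log2 differences were -0.39 ± 0.23 (adjusted p = 0.306) and -0.38 ± 0.20 (adjusted p = 0.253). With the planned block over all 12 libraries neither passed (adjusted p = 0.0983 and 0.0509). With the day 12 block both did, at adjusted p = 0.0454 and 0.0262, so that 3 of 10 genes were called, against 42.2% of all genes in that fit.

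*Hnrnph1* (chr11:50376990-50386528), a G-tract-binding splicing regulator, read higher. It was at 502, 565, 466, and 484 with the UL1 shRNAs and 432 and 454 in shSCR, so every UL1 library was above every shSCR library. The difference was 0.18 ± 0.14 on the log2 scale (adjusted p = 0.430, and 0.190 with the block). Of all genes, 21.3% had every UL1 library above both shSCR libraries.

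The remaining relatives had wide intervals. *Hnrnpa1* (chr15:103240432-103246692), a repressor of exon inclusion, read 493, 881, 561, and 778 with the UL1 shRNAs and 607 and 1047 in shSCR. *Hnrnpd* (chr5:99955935-99978938), which encodes AUF1, read 137, 265, 156, and 241 against 181 and 308. For both, libraries of the same treatment differed more than the treatments did. The log2 differences were -0.27 ± 0.39 for *Hnrnpa1*, -0.30 ± 0.41 for *Hnrnpd*, -0.09 ± 0.22 for *Hnrnpl* (chr7:28808541-28822266), which binds CA repeats, and 0.03 ± 0.20 for *Hnrnpa2b1* (chr6:51460932-51469894). Their adjusted p lay between 0.664 and 0.941. Without shSCR replicate 2 the differences turned to 0.12 for *Hnrnpa1*, 0.0849 for *Hnrnpd*, and 0.0751 for *Hnrnpl*. Within replicate numbers *Hnrnpd* was at 0.756 to 0.860 of shSCR *Hnrnpa1* at 0.743 to 0.923, and *Hnrnpl* at 0.911 to 0.981, each below in 4 of 4 pairs, and *Hnrnpd* had adjusted p = 0.120 with the block.

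**Figure D2:**
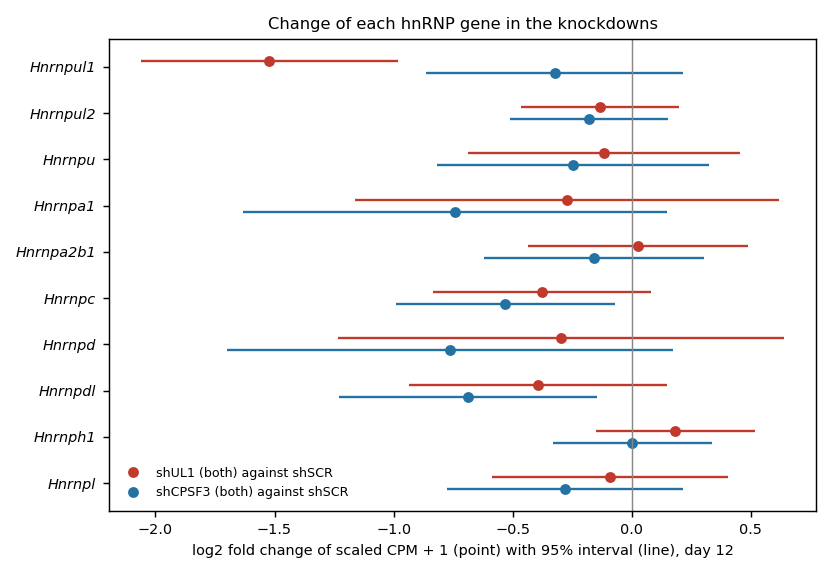
Log2 fold change of scaled CPM + 1 against shSCR at day 12 (x-axis) for each hnRNP gene (y-axis), as the mean of both UL1 shRNAs (red) or both CPSF3 shRNAs (blue), with 95% intervals from limma as lines. For UL1 only the interval of *Hnrnpul1* lies wholly below 0, from -2.06 to -0.98.

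In the *Cpsf3* knockdown, 0 of the 10 genes passed the test on the mean of both shRNAs, against 26.1% of all genes. Before adjustment 2 of the 10 had p under 0.05, where 3988 of all 9435 genes did. The median log2 difference of the 10 was -0.30, against 0.0278 over all genes. The largest were *Hnrnpd* (-0.76 ± 0.41, adjusted p = 0.186), *Hnrnpa1* (-0.74 ± 0.39, 0.178), *Hnrnpdl* (-0.69 ± 0.23, 0.0627), and *Hnrnpc* (-0.53 ± 0.20, 0.0813). With the replicate block these 4 and *Hnrnpl* were lower, 5 of 10 against 59.2% of all genes, at adjusted p from 0.00276 to 0.0469. The planned block over all 12 libraries called the 4 but not *Hnrnpl* (0.0981). A share near or under that of all genes says nothing particular to the family, and 2 genes were called without the block once shCPSF3#2 replicate 2 was left out.

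The shRNAs against *Cpsf3* did not give the same values. With shCPSF3#1 all 10 genes read below both shSCR libraries, as did 34.4% of all genes. *Hnrnpc* (309 and 332 scaled CPM) and *Hnrnpdl* (177 and 207) passed the test at adjusted p = 0.0384 and 0.0329, 2 of 10 genes against 35.2% of all genes, and with the replicate block 8 of 10 against 64.7%. With shCPSF3#2, *Hnrnpc* read 355 and 522 and *Hnrnpdl* 205 and 346, and no gene of the 10 passed, against 5.31% of all genes, nor with the block, against 32.1%. *Hnrnpa1* read 306 and 403 with shCPSF3#1 and 434 and 965 with shCPSF3#2, so the replicates of shCPSF3#2 spanned most of the range of the set. The difference between both shRNAs was not tested.

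UL1 and CPSF3 libraries were also compared directly. None of the 10 genes passed, against 0.0424% of all genes, although *Hnrnpul1* was 1.20 ± 0.19 lower on the log2 scale in the UL1 libraries without overlap (adjusted p = 0.115). With the block 2 of 10 were called, against 14.5% of all genes: *Hnrnpul1* lower (adjusted p = 0.0105) and *Hnrnpd* higher (0.0372) in the UL1 libraries. *Hnrnpd* read 85.6 and 119 with shCPSF3#1, below all UL1 libraries. With shCPSF3#2 it read 127 and 285, which spans the 137 to 265 of the UL1 libraries. The planned block over all 12 libraries called *Hnrnpul1* (0.0198) but not *Hnrnpd* (0.148). The other relatives read higher in UL1 than in CPSF3 by 0.05 to 0.47, with adjusted p from 0.594 to 0.876. For all of them the CPSF3 side pools shRNAs that did not give the same values, and neither was tested alone against UL1.

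Across the 12 knockdown libraries, the genes whose level followed *Hnrnpul1* most closely were *Mrps18a* (r = 0.884), *E2f1* (0.875), *Ap2a1* (0.873), *Kpna1* (0.862), and *Atp5d* (0.861), out of 9434. *Hnrnpul2* ranked 787 (r = 0.501) and the other 8 relatives between 1651 and 2880, with *Hnrnpdl* last (r = 0.269). The 17 other hnRNP genes ranked between 858 (*Hnrnpll*, r = 0.492) and 5234 (*Hnrnph2*). These correlations describe libraries that share treatments and replicate numbers.

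Other hnRNP genes were read from a list of 17. None passed in the UL1 knockdown, where 10.5% of all genes did, and the median log2 difference was -0.01. Before adjustment 3 of the 17 had p under 0.05, where 2713 of all 9435 genes did. With the block, where 42.2% of all genes passed, 1 of them rose, *Hnrnph2* (0.25, adjusted p = 0.0326), and 2 fell, *Hnrnph3* (-0.61, 0.00660) and *Pcbp2* (-0.41, 0.0322), the last a binder of C-rich RNA. In the *Cpsf3* knockdown, against 26.1% of all genes, 2 fell, *Hnrnph3* (-0.85, adjusted p = 0.0398) and *Pcbp2* (-0.68, 0.0189), and with the block 1 rose and 6 fell, against 59.2%. Of 7 known partners of UL1 in DNA repair and export none passed in the UL1 knockdown, and with the block *Blm*, a helicase at DNA breaks, fell by 1.08 (adjusted p = 0.00215) and *Mre11a* by 0.36 (0.0469). Of 10 NMD factors none passed, and 2 had an unadjusted p under 0.05, where 2713 of all 9435 genes did. With the day 12 block 6 NMD factors fell and 1 rose, against 42.2% of all genes. The planned block over all 12 libraries called fewer, with 2 of the 17 other hnRNP genes (*Hnrnph3* and *Pcbp2*), 1 of the 7 partners (*Blm*), and 1 of the 10 NMD factors, all lower, against 29.3% of all genes.

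Markers of cell state moved in the same comparison. Of the 11 listed fibroblast markers 5 were higher in the UL1 knockdown and none lower, against 10.5% of all genes, among them *Col3a1* at 13130, 6099, 5675, and 3467 scaled CPM against 1021 and 1251 in shSCR (log2 difference 2.48, adjusted p = 0.0128), and the median of the 11 was 0.93. The epithelial keratin *Krt8* read 125, 36.8, 47.7, and 25.4 against 268 and 146 (adjusted p = 0.120). All 9 proliferation markers read lower, with a median of -0.51, and none passed. With the block, against 42.2% of all genes, 7 fibroblast markers were higher and both keratins and 7 proliferation markers lower. With the planned block over all 12 libraries, against 29.3%, 7 fibroblast markers were higher and both keratins and 1 proliferation marker lower. In the *Cpsf3* knockdown, without the block, 6 fibroblast markers were higher and both keratins lower, against 26.1% of all genes. No proliferation marker passed, and their median was -1.24. With the day 12 block, against 59.2%, 9 fibroblast markers were higher and both keratins and 9 proliferation markers lower. With the planned block, against 49.8%, 8 fibroblast markers were higher and both keratins and 8 proliferation markers lower. From NI to shSCR 6 of the 11 fibroblast markers were lower and both keratins higher, against 44.5% of all genes. From NI to Empty 8 of the 11 were lower, and of the 9 proliferation markers 4 were higher and 1 lower, against 46.5%. The part of these markers in the hnRNP values was not tested.

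From day 0 to day 12, in shSCR against NI, 1 of the 10 hnRNP genes was called, against 44.5% of all genes. *Hnrnph1* was 432 and 454 scaled CPM at day 12 and 674 and 808 at day 0, 1.66-fold lower at day 12 (log2 difference -0.74 ± 0.17, adjusted p = 0.00845). Without NI replicate 2 no gene of the 10 was called, and without shSCR replicate 2 there were 2. *Hnrnpa2b1*, an RNA trafficking and splicing factor, read 892 and 1221 against 1547 and 1677 and did not pass (-0.63 ± 0.23, adjusted p = 0.0579). Of the 17 other hnRNP genes 8 were lower and 1 higher. *Rbmx* fell by 1.07, *Syncrip* by 0.82, and *Hnrnpll* by 0.71 on the log2 scale (adjusted p = 0.00160, 0.00427, and 0.00232), and *Hnrnph3* rose by 1.08 (0.0166).

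The overexpression set gave a second day 0 and day 12, in Empty against NI, with 4 of 10 genes called against 46.5% of all genes. *Hnrnph1* was again lower, at 500.5 and 492 against 835 and 683 (log2 difference -0.61 ± 0.14, adjusted p = 0.0164). *Hnrnpd* (324 and 299.6 against 250.0 and 188), *Hnrnpc* (553 and 537 against 419 and 399.9), and *Hnrnpdl* (389.9 and 320.4 against 281 and 239.8) were higher by 0.52, 0.41, and 0.44 (adjusted p = 0.0404, 0.0229, and 0.0499). In the knockdown set the same genes differed by -0.23, 0.25, and 0.36 between shSCR and NI without passing. The count of 4 became 0 in a fit of only these groups and 0 without either Empty library, and 6 without NI replicate 1. Among the 17 other hnRNP genes 3 were lower and 1 higher in Empty than in NI, with a median log2 difference of -0.06. From NI to shSCR the median of these 17 genes was -0.53. Scaling bears on both day comparisons, since rescaling libraries to equal sums moved the median of all genes by 0.131 for shSCR and 0.179 for Empty.

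No hnRNP gene passed the test between T7-TIA1 and Empty. The test called 0% of all genes and 0 of the 10 hnRNP genes, and 393 genes but no hnRNP gene had an unadjusted p under 0.05. The overexpressed *Tia1* itself, 2.71 ± 0.21 higher on the log2 scale, was among the genes that did not pass. The log2 differences of the 10 genes lay between -0.07 and 0.14, and each had adjusted p = 0.999. The widest 95% interval, that of *Hnrnpu*, ran from -0.25 to 0.48.

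Splicing was read as percent spliced in (PSI), that is, how many percent of a gene's transcripts hold the exon, keep the intron, or are cut at the splice site in question. Of the 507 covered events 92 were exons, 96 introns, 168 alternative 3′ splice sites, and 151 alternative 5′ splice sites. The sequences of 3 coding exons are shown because their inclusion changed at day 12 and their reading frames differ. Capitals mark the exon (for the last, its 47 coding bases, after which the stop codon TAG ends the exon), and small letters the 12 flanking transcript bases.
*Hnrnpd* MmuEX0023100: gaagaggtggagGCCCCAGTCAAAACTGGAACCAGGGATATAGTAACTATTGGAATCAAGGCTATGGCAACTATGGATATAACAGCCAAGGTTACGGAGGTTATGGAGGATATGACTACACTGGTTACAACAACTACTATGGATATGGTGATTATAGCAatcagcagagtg
*Hnrnph1* MmuEX0023107: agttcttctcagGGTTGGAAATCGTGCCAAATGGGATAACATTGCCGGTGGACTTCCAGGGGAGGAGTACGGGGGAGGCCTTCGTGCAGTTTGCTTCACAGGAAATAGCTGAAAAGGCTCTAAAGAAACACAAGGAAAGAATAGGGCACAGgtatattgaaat
*Hnrnph1* MmuEX0023108: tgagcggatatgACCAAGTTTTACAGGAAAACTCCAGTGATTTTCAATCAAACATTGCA

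The first exon, of 147 nt at chr5:99963731-99963877, is exon 6 of 8 of Hnrnpd-203 and adds 49 codons without a change of frame. The second, of 139 nt at chr11:50381459-50381597, is exon 5 of 14 of Hnrnph1-201, and its skipping shifts the frame. The third, of 50 nt at chr11:50385141-50385190, is exon 13 of the same transcript and carries its stop codon.

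When *Hnrnpul1* was depleted, inclusion fell in a few events of *Hnrnpa2b1*, *Hnrnpd*, *Hnrnpdl*, and *Hnrnph1*. A limma test on the inclusion and exclusion reads called 4 of the 507 covered events, all lower, against 0.146% of all events, while 108 of them had p under 0.05 before adjustment. Of these 46 lie in *Hnrnpul1* itself, and the other 9 genes had 62 of 439 (14.1%), against 13.6% of all events. With the replicate block 0 of the 507 were called and 0% of all events, and with the planned block over all 12 libraries 2 of the 507. Where at least 1 read of the rarer form per library was required, 15 of 230 were called, 3 higher and 12 lower, against 1.82% of all such events. Here and below, the shares of hnRNP events and of all events are not matched for read coverage. In the knockdown set 507 of 599 hnRNP events were covered, against 374159 of 661941 in the whole series. A further rule used PSI without a test. Groups differed by this rule when their means were at least 10 PSI apart with a gap of at least 5 between their libraries, and a knockdown event was kept when the mean of both shRNAs was at least 10 PSI from shSCR and, for each shRNA, groups differed in at least 1 of the 3 pairs formed by NI, shSCR, and that shRNA. An event that differs between NI and shSCR can therefore be kept with overlapping UL1 libraries. By this rule 7 of 510 events passed, 1 higher and 6 lower, against 0.497% of all events. The 4 calls became 0 without shSCR replicate 1 or without any single UL1 library, in a fit of only the compared groups, and without weights. They became 7 with *limma* on PSI. The calls of *Hnrnpa2b1* MmuEX0023091 and *Hnrnpdl* MmuINT1020769 were lost in all 6 fits that left out 1 library. The calls therefore depend on how replicates and rare forms are treated, and the PSI values are given for each library.

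In *Hnrnpd* the 147-nt exon was included at 62.1% and 62.4% with shUL1#1 and 63.3% and 63.1% with shUL1#2, against 76.2% and 72.4% in shSCR. NI cells had 55.2% and 56.8%. The UL1 libraries thus lay between the NI and shSCR libraries, with no overlap, on 3362 to 8078 reads per library. The mean was 11.6 PSI lower than in shSCR (adjusted p = 0.0338, and 0.0730 with the block). A second cassette exon of *Hnrnpd*, MmuEX0023101 (57 nt, chr5:99976534-99976590, coding or 5′ UTR by transcript), ran the other way. It was at 51.5%, 53.8%, 52.6%, and 53.2% with the UL1 shRNAs, 36.9% and 45.3% in shSCR, and 58.0% and 60.4% in NI, a difference of 11.7 PSI that met the PSI rule but not the test (adjusted p = 0.1005).

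*Hnrnpa2b1* showed the largest differences, in its 3′ UTR. The event MmuINT1020748 is a 1977-nt intron at chr6:51461434-51463410, and MmuEX0023091 is a 73-nt exon inside it at chr6:51461983-51462055. The intron was retained at 60.9% and 65.0% with shUL1#1 and 36.2% and 46.6% with shUL1#2, against 81.3% and 78.1% in shSCR and 24.0% and 23.3% in NI. The exon was included at 51.4%, 49.1%, 23.7%, and 32.7% with the UL1 shRNAs, against 65.4% and 60.1% in shSCR and 11.3% and 11.1% in NI. All 4 UL1 libraries were below both shSCR libraries and above both NI libraries in each event, and shUL1#2 was further from shSCR than shUL1#1. The exon was 23.5 PSI lower (adjusted p = 0.0480, and 0.112 with the block), and the intron 27.5 PSI lower (adjusted p = 0.0501, and 0.0951 with the block). The exon lies in the intron and shares reads with it, so both are not independent.

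*Hnrnpdl* carries a similar arrangement. Its exon MmuEX0023143 (105 nt, chr5:100035635-100035739) lies inside the 3′ UTR intron MmuINT0078609 (1119 nt, chr5:100034985-100036103) and is annotated in 2 transcripts, of the NMD and the retained-intron classes. It was included at 27.2%, 20.98%, 31.8%, and 22.0% with the UL1 shRNAs, 53.2% and 40.9% in shSCR, and 16.1% and 16.2% in NI. The difference from shSCR of 21.6 PSI met the PSI rule but not the test (adjusted p = 0.149). The intron around it was retained at 48.8%, 35.9%, 46.3%, and 33.98% with the UL1 shRNAs, 59.2% and 49.5% in shSCR, and 25.6% and 23.6% in NI, and its difference of 13.1 PSI also met the rule only (adjusted p = 0.332). The highest UL1 library of this intron (48.8%) came within a single PSI point of the lower shSCR library (49.5%). An intron of the coding region, MmuINT1020769 (738 nt, chr5:100037982-100038719), was retained at 8.18%, 9.09%, 7.47%, and 8.55% against 14.4% and 13.7% in shSCR. It was 5.72 PSI lower (adjusted p = 0.0432, and 0.0674 with the block), and NI had 7.14% and 6.19%.

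In *Hnrnph1* the 50-nt exon with the stop codon was at 91.0% and 91.0% with shUL1#1 and 92.0% and 89.8% with shUL1#2, against 96.8% and 95.6% in shSCR and 87.8% and 87.9% in NI. It was 5.24 PSI lower with no overlap (adjusted p = 0.0375, and 0.0674 with the block). In *Hnrnpl* the exon MmuEX0023118 (497 nt, chr7:28810672-28811168, coding in part) was at 41.1%, 54.5%, 33.1%, and 49.1% against 65.5% and 59.2% in shSCR and 61.4% and 61.0% in NI. It was 17.9 PSI lower by the rule but not by the test (adjusted p = 0.271), on 242 to 358 reads, and here the UL1 libraries lay below NI as well.

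**Figure D3:**
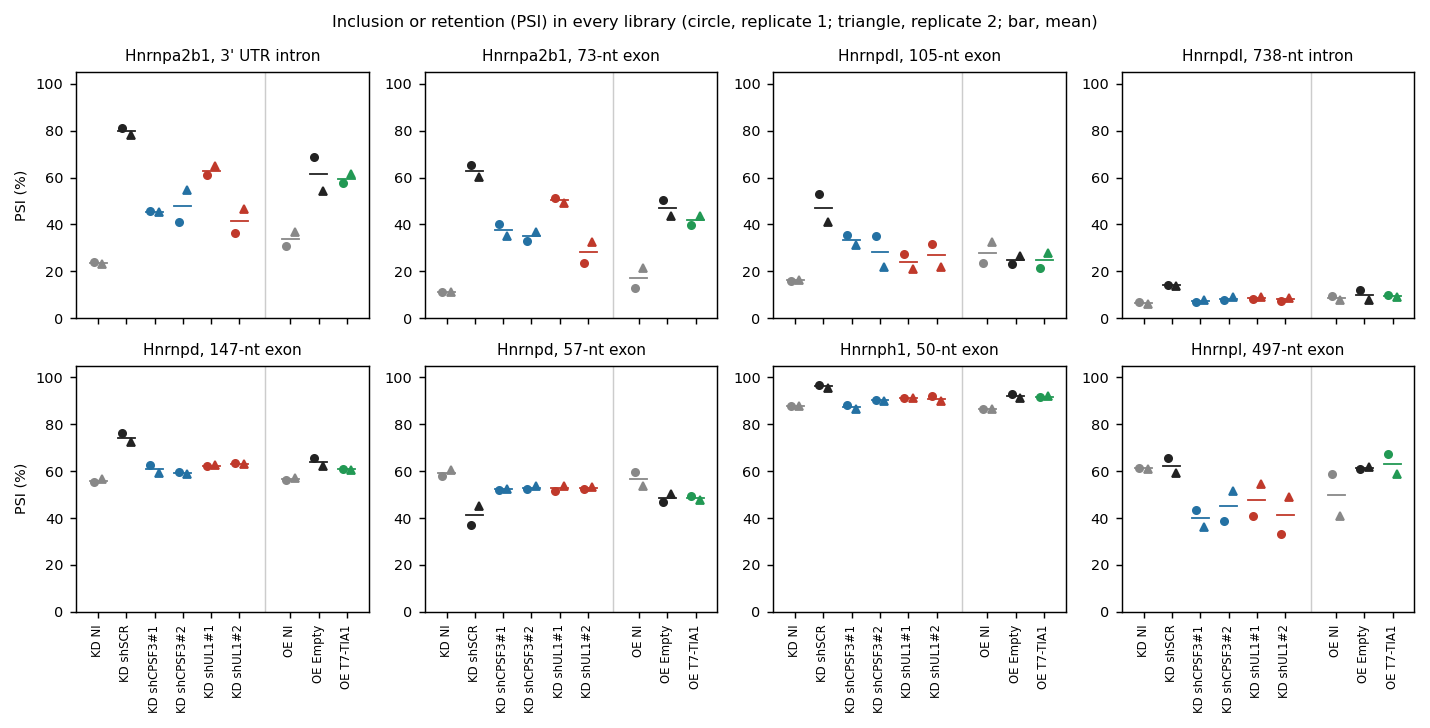
PSI in percent (y-axis from 0) of 8 of the 9 hnRNP events that met the test or the PSI rule for UL1 against shSCR (the intron around the 105-nt exon of *Hnrnpdl* is not drawn), 1 panel per event and 1 column of 2 points per group for all 18 libraries. In *Hnrnpa2b1* the intron of the 3′ UTR goes from 24.0 and 23.3 in NI to 81.3 and 78.1 in shSCR, with the knockdown libraries between them.

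Splicing of *Hnrnpul1* and its paralogs gave no such event. Of the 68 covered events of *Hnrnpul1* none was called and none differed by more than 3.83 PSI, although 46 had an unadjusted p under 0.05, with fewer reads on the gene in the UL1 libraries. The 67 events of *Hnrnpul2* differed by at most 1.51 PSI and the 81 of *Hnrnpu* by at most 5.70 PSI. For *Hnrnpa1* the largest difference was 2.60 PSI over 32 events, and for *Hnrnpc* 9.26 PSI over 34 events, in a 5′ UTR splice site with 57 to 89 reads.

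In the *Cpsf3* knockdown 10 of 507 events were called, 2 higher and 8 lower, against 0.612% of all events, and 3 with the block, against 0.193%. The 10 calls became 0 in a fit of only the compared groups, 1 without weights, and 6 with a constant of 0.5 read. They became 4 without shSCR replicate 1 or shCPSF3#2 replicate 2, 3 without shCPSF3#1 replicate 1, and 1 without shCPSF3#1 replicate 2 or shCPSF3#2 replicate 1. With at least 1 read of the rarer form per library 23 of 230 were called, against 3.47%. By the PSI rule 7 of 507 passed, 1 higher and 6 lower, against 0.587%. The 147-nt exon of *Hnrnpd* was at 62.4%, 59.2%, 59.5%, and 58.9%, 14.2 PSI below shSCR (adjusted p = 0.0143, and 0.0413 with the block). The intron of the *Hnrnpa2b1* 3′ UTR was retained at 45.6%, 45.1%, 40.9%, and 54.9%, 33.1 PSI lower (adjusted p = 0.0233, and 0.0537 with the block), and the 50-nt exon of *Hnrnph1* was 7.46 PSI lower (adjusted p = 0.0143, and 0.0355 with the block). The 2 higher calls, named after their values were seen, were a form of a 3′ splice site of *Hnrnpa2b1*, MmuALTA1002242-1/3 (2.02 PSI higher, adjusted p = 0.0475), and a form of a 5′ splice site of *Hnrnph1*, MmuALTD0006709-4/4 (5.78 PSI higher, 0.0384). A short intron of *Hnrnpu*, MmuINT0078566, also fell, but by only 0.71 PSI (adjusted p = 0.0268). These differences and those of UL1 are taken from the same shSCR libraries. The direct comparison of UL1 with CPSF3 called 0 of 507 events and 0% of all events, with 73 of the 507 at an unadjusted p under 0.05. Of these, 51 lie in *Hnrnpul1*, and the other 9 genes had 22 of 439 (5.01%), against 6.74% of all events.

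From NI to shSCR 33 of 507 events were called, 26 higher and 7 lower, against 4.53% of all events, which became 9 without either NI library and 12 without shSCR replicate 1. In a fit of only these groups 0 were called, without weights 18, and with *limma* on PSI 11. By the PSI rule 8 of 512 passed, 5 higher and 3 lower, against 1.22%. *Hnrnpa2b1* gave 8 calls, all higher, of which 1, MmuEX1014741, had no read of its rarer form in any library, and *Hnrnph1* gave 6. The 3′ UTR intron of *Hnrnpa2b1* rose by 56.0 PSI and the exon inside it by 51.5 PSI (adjusted p = 0.00435 and 0.00239). The 147-nt exon of *Hnrnpd* rose by 18.3 PSI (adjusted p = 0.00530) and its 57-nt exon fell by 18.1 PSI (0.0140), while the 105-nt exon of *Hnrnpdl* rose by 30.9 PSI (0.0258). The frame-shifting exon of *Hnrnph1* went from 92.7% and 95.4% in NI to 75.9% and 83.2% in shSCR, a fall of 14.4 PSI (adjusted p = 0.0243), and in the UL1 libraries it was at 83.9% to 86.9%. In *Hnrnpl*, a 111-nt intron, MmuINT0078536 (chr7:28818533-28818643), fell from 27.1% and 26.4% to 15.4% and 15.2% (adjusted p = 0.00729). *Hnrnpul2* gave 3 calls, both forms of a coding splice site that differed by 0.585 PSI and an intron, MmuINT0078599, that rose by 0.535 PSI (adjusted p = 0.0407), the intron being named after its values were seen. No event of *Hnrnpul1* or *Hnrnpc* was called.

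In the overexpression set no hnRNP event was called from NI to Empty, against 0.000525% of all events, with 71 of 512 at an unadjusted p under 0.05, where 17.9% of all events had one. By the PSI rule 7 passed, 4 higher and 3 lower, against 0.679%. The *Hnrnpa2b1* intron was retained at 30.7% and 36.9% in NI and 68.9% and 54.1% in Empty, 27.7 PSI higher (adjusted p = 0.162), and the exon inside it was 30.0 PSI higher (0.136). The 147-nt exon of *Hnrnpd* was 7.28 PSI higher (adjusted p = 0.159), below the rule. *Hnrnpdl* gave 23.4% and 32.5% in NI and 23.0% and 26.6% in Empty for its 105-nt exon, without a difference beyond the spread. A 51-nt exon of *Hnrnpu*, MmuEX0023133, fell by 17.7 PSI by the rule (adjusted p = 0.223), on 40 to 411 reads.

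T7-TIA1 against Empty gave 0 of 512 hnRNP events and 0% of all events by the test, with 25 of the 512 at an unadjusted p under 0.05, where 5.75% of all events had one. By the PSI rule 3 of 529 passed, 2 higher and 1 lower, against 0.342%. They were both forms of the *Hnrnpc* splice site MmuALTD1032826, which differed by 16.1 PSI on 95 to 131 reads, and a splice site of *Hnrnpa1*, MmuALTD1028957-6/9, with 12.5 PSI on 21 to 32 reads. The *Hnrnpa2b1* intron stayed within the spread, at 57.5% and 61.5% against 68.9% and 54.1%.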

How the data were processed

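RNA-seq of 18 libraries was used. The authors mapped stranded reads to mm10 with *STAR* 2.7.1a and made expression values with *edgeR* 3.16.5, per the labels, and the deposited values are a signal, CPM scaled per library, for genes over an expression minimum. Splicing was quantified by the authors with *vast-tools*, and the deposited PSI values are percent, beside a text with a coverage score and inclusion and exclusion reads. Depth was recovered from the step between values (all whole within 0.1 read), and no count test was run on those reads, which are an estimate.

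Scaled CPM, plus 1 and on the log2 scale, entered *limma* 3.58.1 (R 4.3.3) with a trend and all libraries of a table in a single fit, 2-sided, with Benjamini-Hochberg adjustment over all genes at 0.05. A group effect of UL1 or CPSF3 is the mean of its 2 shRNAs. Event reads were tested with robust *limma* on log2 of inclusion over exclusion reads, each plus 1, weighted by counting variance plus 0.05, over all events with the lowest accepted score or better in every library of the set. The PSI rule asked for group means at least 10 apart and a gap of at least 5 between libraries, for knockdowns in at least 1 of the 3 pairs of NI, shSCR, and each shRNA, with the mean of both shRNAs at least 10 from shSCR. Tests were tried on simulated data first.

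Same-numbered day 12 knockdown libraries deviated together in all 10 pairs of groups (r from 0.674 to 0.949 over genes, 0.118 to 0.291 over events), so the number was taken to pair them, from the data and not from the labels. Loci and exons are from the GENCODE annotation of GRCm38, shRNA sequences from the study's oligos. Named events are those that met the test or the rule, at most 4 a gene for UL1 and 2 a gene elsewhere by PSI difference, and for a gene with none its largest covered event for UL1. The genes, lists, and tests were chosen with earlier results of these data known. Columns of other series: 0.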

Additional observations from a re-analysis of the deposited data

Results flagged for a closer look

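At a pair of alternative 5′ splice sites both shSCR libraries lay on one side of NI in the knockdown set and both Empty libraries on the other side of NI in the overexpression set, and the difference between the sets was not tested. For MmuALTD0006705 of *Hnrnpd*, the PSI of the first form was 1.925 higher in shSCR than in NI and 13.87 lower in Empty than in NI (-13.87), and the second form mirrored it (-1.925 and 13.87), on 15 to 58 reads per library, with 1 read of the first form in each shSCR library (adjusted p = 0.256 for Empty). For MmuALTD1034797 of *Hnrnpul2*, the first form was 0.585 PSI lower in shSCR (-0.585) and 0.135 higher in Empty, mirrored by the second form (0.585 and -0.135), with adjusted p = 0.0289 for shSCR and 0.887 for Empty. Groups of 2 libraries were not screened for outlying samples.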

How the results depend on the processing

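With a constant of 0.1 or 5, or only genes with a mean of at least 20 scaled CPM, the counts of called hnRNP genes stayed within 1.5 times. Scaling by median ratio gave 1 for CPSF3 and 2 for shSCR against NI. Rescaling to equal sums turned *Hnrnpa2b1* to -0.0032 in UL1. Fits of only the compared groups called 0 genes for UL1 and for Empty, and 0 events for UL1, CPSF3, and shSCR against NI. With the planned replicate block over all libraries, the counts of genes were 1 for UL1, 4 for CPSF3, 1 for UL1 against CPSF3, and 2 for shSCR against NI, and 2 events were called for UL1. With the replicate block on day 12 knockdown libraries only, chosen after seeing the data, 3 genes were called for UL1, 5 for CPSF3, and 2 for UL1 against CPSF3, with 0 events for UL1 and 3 for CPSF3. Same-numbered overexpression libraries had r from 0.171 to 0.308 over genes and from 0.0337 to 0.166 over events, and the replicate block left 4 and 0 genes and 0 events called.

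For event reads, a constant of 0.5 read gave 6 for CPSF3. Without weights the counts were 0 for UL1, 1 for CPSF3, and 18 for shSCR against NI. *limma* on PSI gave 7 for UL1, 1 for UL1 against CPSF3, 11 for shSCR against NI, 4 for Empty, and 6 for T7-TIA1. Requiring at least 1 read of the rarer form, also chosen after seeing the data, gave 15 for UL1, 23 for CPSF3, and 3 for Empty. A PSI difference of at least 15 left 3 for UL1, 4 for CPSF3, and 3 for Empty, and no minimum gap gave 11 for Empty.

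Leaving out 1 library at a time gave 0 to 1 genes for UL1, 0 to 2 for CPSF3, 0 to 2 for shSCR against NI, and 0 to 6 for Empty. Event counts ranged from 0 to 6 for UL1, 1 to 8 for CPSF3, and 9 to 28 for shSCR against NI. Counts by the PSI rule without a replicate number ranged from 4 to 11 for UL1, 8 to 12 for CPSF3, 7 to 15 for Empty, and 6 to 8 for T7-TIA1. Log2 differences for UL1 changed sign for *Hnrnpa1* (-0.66 to 0.12), *Hnrnpa2b1* (-0.20 to 0.25), *Hnrnpd* (-0.68 to 0.0849), *Hnrnpl* (-0.26 to 0.0751), *Hnrnpu* (-0.39 to 0.16), and *Hnrnpul2* (-0.29 to 0.0164). The causes were not tested. The planned count test with edgeR was not run, since the reads would be inferred from the steps of tables that list no gene with few reads. With 2 libraries per group, differences within the spread were not detectable, and events with few reads have wide counting errors.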
